A study of Mus musculus with 6 samples.

Results

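Glycolysis and the response to low oxygen were described here through 35 mouse genes, 18 glycolytic enzymes and 17 other targets or subunits of the hypoxia-inducible factors (HIF). The genes were chosen by name, with earlier results of these data known. All 35 symbols were found among the 49492 rows of a table of gene counts. The table holds poly(A) RNA-seq of palatal shelves, the outgrowths that form the secondary palate, taken from mouse embryos of a C57BL strain at E14.5. The 3 control libraries (212, 213 and 220) came from PRMT1 fl/fl embryos, and the 3 deletion libraries (208, 211 and 221) from Wnt1-Cre; PRMT1 fl/fl embryos. Both groups therefore carry the floxed alleles of the arginine methyltransferase gene, and the deletion group alone carries the Cre transgene, so an effect of Cre itself cannot be told apart from that of the deletion. The Wnt1 promoter drives Cre in the neural crest, the source of the palatal mesenchyme, while the epithelium, vessels, blood and muscle of the dissected tissue have another origin. Whether a library is 1 embryo or a pool is not given in the sources used here, so p-values cover no more than the spread among these libraries.

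Glycolysis splits glucose into pyruvate and yields ATP without oxygen, and lactate dehydrogenase turns pyruvate into lactate so that the pathway can go on. When oxygen is low, the prolyl hydroxylases that mark HIF alpha subunits for destruction slow down, and stabilised HIF binds a short DNA element, the hypoxia response element, near genes for glucose uptake, glycolysis, vessel growth and mitochondrial turnover. Growing embryonic tissues run much of this programme in normal development.

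The promoter sequence of 4 members is shown here because the results below turn on these genes and because they carry the core of the hypoxia response element, ACGTG. Slc16a3 was among the 2 members that passed the test, Ldha and Pgk1 passed when deletion library 221 was left out and not with all 6, and Hk2 had the smallest adjusted p among the enzymes. Each sequence is a stretch of a RefSeq promoter window on GRCm38.p6, the assembly that mm10 names. It was taken from the bases before the start that lie in no annotated exon and trimmed to the matches there with short flanks. It is written 5′ to 3′ on the strand of the gene, with capitals marking every ACGTG read on either strand (CACGT is ACGTG on the other strand). The stretches lie at chr11:120949000-120949052 (plus strand), chr7:46845619-46845803 (plus strand), chr6:82774462-82774704 (minus strand) and chrX:106186910-106187013 (plus strand). Where a gene had several windows, the window with the most matches was used, and the other window of Ldha held 0. The annotated Slc16a3 and Ldha genes begin further upstream, at 120948480 and 46841475, so their stretches precede starts inside the gene.
Slc16a3: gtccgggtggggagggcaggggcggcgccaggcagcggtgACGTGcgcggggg
Ldha: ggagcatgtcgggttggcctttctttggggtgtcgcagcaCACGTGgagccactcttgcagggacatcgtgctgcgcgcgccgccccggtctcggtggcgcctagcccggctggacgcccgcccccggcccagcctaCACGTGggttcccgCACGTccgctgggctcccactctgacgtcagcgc
Hk2: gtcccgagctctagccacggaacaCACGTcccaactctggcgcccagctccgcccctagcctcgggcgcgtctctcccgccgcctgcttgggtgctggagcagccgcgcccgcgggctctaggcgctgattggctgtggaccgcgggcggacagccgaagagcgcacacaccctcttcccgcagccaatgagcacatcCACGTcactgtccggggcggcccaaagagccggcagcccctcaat
Pgk1: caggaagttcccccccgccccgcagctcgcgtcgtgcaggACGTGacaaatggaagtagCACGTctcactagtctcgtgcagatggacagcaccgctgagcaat
The Ldha stretch of 185 bases holds 5 matches, 2 on the strand of the gene and 3 on the other, of which the palindrome CACGTG accounts for a match on each strand at both of its positions. CACGTG is also the E-box bound by Myc and Mxi1, so those matches overlap another factor's motif. Hk2 holds 2 matches, both on the other strand, Pgk1 holds 1 on each strand, and the Slc16a3 stretch holds 1 of the 2 in its whole window.

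RefSeq promoter windows of 300 bases (250 before and 50 after a start) were found for 32 of the 35 members, 48 windows in all, with Ero1l matched through its present symbol Ero1a. Bnip3l, Ndrg1 and Epas1 had no entry. ACGTG on either strand was present in at least 1 window of 23 of 32 members (71.9%), against 27.6% of 12480 tested genes with a window and 21.8% of all 27025 genes with a window. Among the enzymes it was found in 11 of 18 (61.1%), and among the other HIF targets and subunits in 12 of 14 (85.7%). Counted by window, 27 of 48 member windows (56.2%) held it, against 19.6% of all 32851 windows, those of untested genes included. Genes with several starts count more than once there, and some of their windows overlap. With GCGTG also allowed, 29 of 32 members (90.6%) had a match, against 64.2% of tested genes. The members were picked as known glycolysis and HIF genes, so this share describes the choice and is no evidence of binding in the palate.

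Sequencing totals ran from 44919889 to 50022829 estimated counts per library, and all 35 members passed the filter on low counts. Prmt1, the deleted gene, had 258, 249.7 and 246 CPM (counts scaled to a common library size with TMM factors) in controls 212, 213 and 220 and 201, 206 and 217 CPM in deletion libraries 208, 211 and 221. Its log2 fold change was -0.27 ± 0.05 (SE; edgeR adjusted p = 0.0113). Every deletion library lay below every control, yet most of the counts at the gene remained. These are counts over the whole gene in the whole dissected tissue, so the extent of deletion in neural crest cells cannot be read from them. Xist was low in controls 212 and 213 (15.5 and 15.96 CPM) and high in the other 4 libraries (3384 to 4487 CPM), and summed Y-linked genes were at 247 and 254 CPM in those 2 controls and at most 0.402 CPM elsewhere. Embryo sex is thus partly confounded with the groups. Markers of other cell types also moved with the groups. Of the marker lists, 15 of 26 tested skeletal muscle genes and 9 of 18 cartilage genes rose, whereas 6 of 12 epithelial and 3 of 12 bone genes fell. In the same order and directions, DESeq2's Wald test called 22, 12, 8 and 11 genes and limma voom 21, 10, 7 and 8. Median log2 fold changes in the main test were 1.13, 1.05, -0.43 and -1.81. Summed muscle markers were 740.5 to 796 CPM in controls against 1260.3 to 2132 CPM after deletion, and summed epithelial markers 1379.8 to 1477 CPM in controls against 873 to 1142 CPM after deletion. Cartilage sums were 881 to 1167 CPM in controls against 1348 to 1518 CPM after deletion, and bone sums 4684 to 6233 CPM in controls against 2852 to 3707 CPM after deletion. None of the 13 red blood cell, 12 endothelial, 12 neuronal and 10 macrophage genes passed edgeR's test (0, 5, 6 and 2 at an unadjusted p under 0.05; 0, 1, 5 and 0 by DESeq2's Wald test and 0, 0, 2 and 0 by limma voom). Their sums were 3693 to 4887 CPM in controls against 2143 to 4752 CPM after deletion for blood, 543 to 579 CPM in controls against 503 to 551 CPM after deletion for endothelium, 122 to 132 CPM in controls against 156 to 267 CPM after deletion for neurons and 92.8 to 116 CPM in controls against 88.7 to 98.3 CPM after deletion for macrophages. Palatal mesenchyme markers (Prrx1, Osr2, Pax9, Shox2 and others) were present in every library, with sums of 5048 to 5205 CPM in controls against 4761 to 5189 CPM after deletion. No marker in the table was at 0 in every library. In such bulk tissue, fewer cells of a type and less RNA per cell cannot be told apart, and the part of these cell types in the values of the members was not tested beyond the fits given beside them.

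Across the 19284 tested genes, edgeR's quasi-likelihood test called 1352 genes (7.01%) at an adjusted p under 0.05, of which 649 (3.37%) were lower. None of the 18 glycolytic enzymes passed in either direction, with 1, Hk2, at an unadjusted p under 0.05. DESeq2's Wald test called 1 enzyme (Hk2, log2 fold change -0.29, adjusted p = 0.0331) and limma voom called 0. Their median log2 fold change was -0.02, with 9 above and 9 below 0, beside a median of -0.00013 over all tested genes. The 95% intervals of 16 of the 18 enzymes lay within a 1.5-fold change either way, while those of Ldha and Pfkfb3 reached down to -0.65 and -0.91 on the log2 scale. Of the 17 other HIF targets and subunits, 2 fell, Ndrg1 and Slc16a3, and 0 rose (0 at an unadjusted p under 0.05, and 0 by DESeq2's Wald test or limma voom). That is a share of 11.8%, against the 3.37% of all tested genes that fell. Their median was -0.19, 16 of 17 values were below 0, and 7 had an unadjusted p under 0.05, all of them lower. Over all 19284 tested genes, 9649 values were below 0. An unadjusted p under 0.05 was found for 4344 of these genes, 2181 of them lower. Whether the 2 lists differ from each other was not tested.

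**Figure D1:**
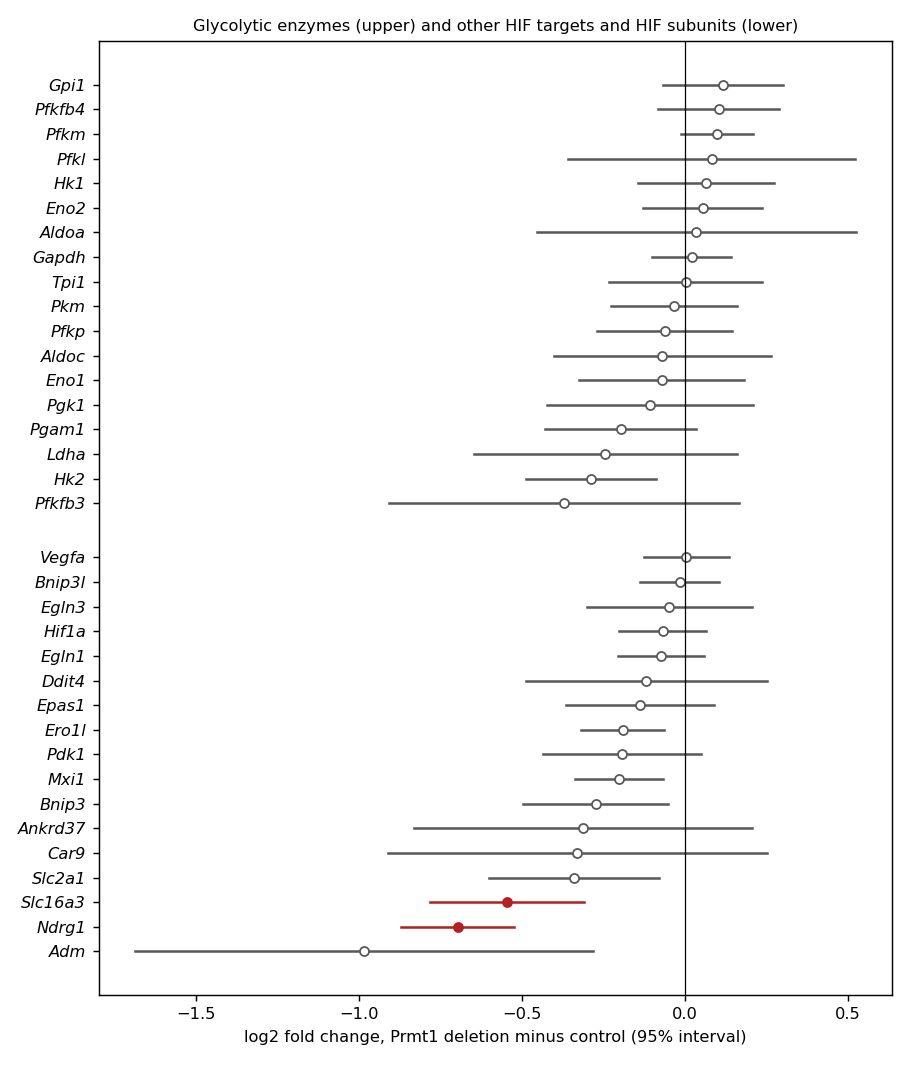
Log2 fold change (deletion minus control, x axis) of each of the 35 members with its 95% interval from edgeR, the enzymes above and the other HIF targets and HIF subunits below; filled red points passed the adjusted p threshold. The enzymes spread from -0.37 (Pfkfb3) to 0.12 (Gpi1) around 0, while 16 of the 17 others lie left of 0.

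Ndrg1, a stress-responsive gene induced by hypoxia and linked to differentiation and cell migration (chr15:66929318-66969640, minus strand), had 49.8, 49.9 and 41.8 CPM in controls 212, 213 and 220 and 29.5, 29.7 and 28.2 CPM in deletion libraries 208, 211 and 221. The 3 deletion libraries were nearly equal and all lay well below the lowest control. The mean was 47.2 ± 4.65 CPM across controls and 29.1 ± 0.814 CPM after deletion (SD, n = 3 each), a 1.62-fold higher level in controls, with a log2 difference of -0.70 ± 0.08 (SE; edgeR adjusted p = 0.00100). Ndrg1 passed in 19 of 21 alternative settings. With embryo sex in the model, which leaves control 220 as the only control of the sex of the deletion libraries, its log2 fold change was -0.52 (edgeR adjusted p = 0.0261), in a fit that called 0.669% of tested genes. It did not pass when the controls 212 and 213 were left out (-0.52, edgeR adjusted p = 0.0770) or with the muscle marker level as a covariate (-0.77, edgeR adjusted p = 0.378), a setting that nearly follows the groups and called 0 genes (1671 at an unadjusted p under 0.05).

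Slc16a3 encodes the monocarboxylate transporter that carries lactate out of strongly glycolytic cells (chr11:120948480-120960868, plus strand). Controls had 50.8, 49.2 and 45.1 CPM and deletion libraries had 27.7, 33.4 and 38.2 CPM. Every deletion library lay below every control, with library 221 the nearest to them. Means were 48.3 ± 2.93 CPM across controls and 33.1 ± 5.24 CPM after deletion (SD, n = 3 each). The log2 difference was -0.55 ± 0.11 (SE; edgeR adjusted p = 0.0145). This call was less steady than that of Ndrg1 and held in 14 of 21 settings. It was lost with embryo sex in the model (-0.45, edgeR adjusted p = 0.226), without control 213 (-0.53, edgeR adjusted p = 0.0775) and without deletion library 211 (-0.55, edgeR adjusted p = 0.0572). It was also lost with a minimum change of 1.2-fold, with the globin ratio or the muscle marker level as a covariate and without controls 212 and 213, where edgeR adjusted p-values ran from 0.0997 to 0.794.

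**Figure D2:**
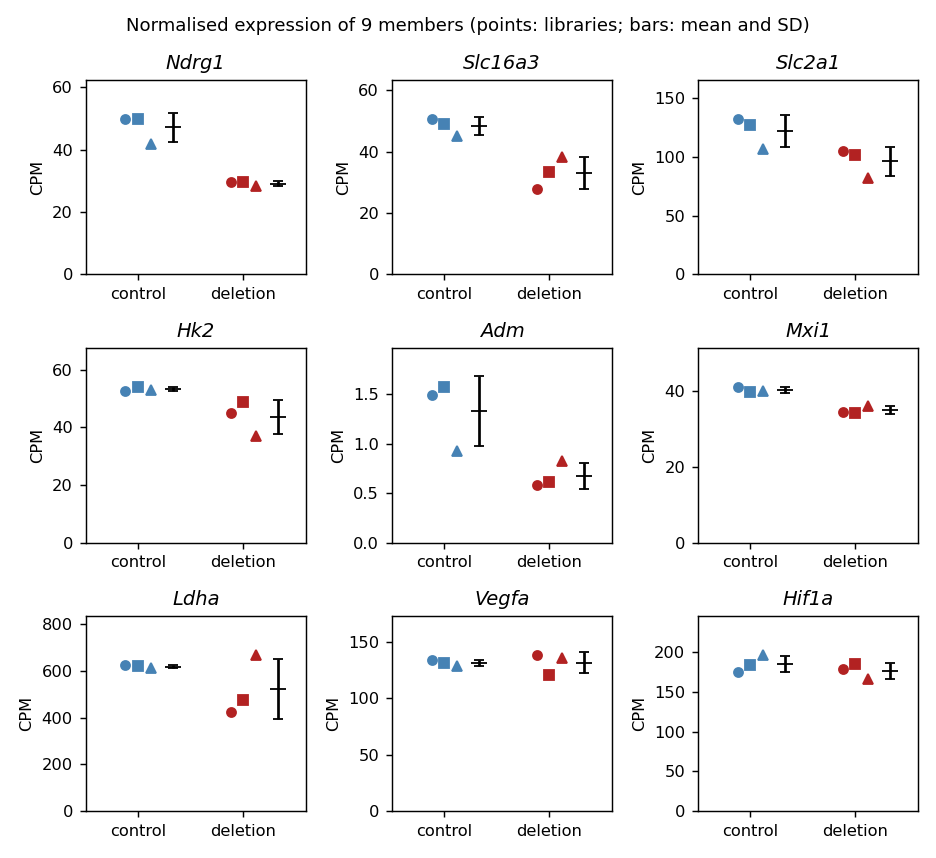
Normalised expression (CPM, y axis, from 0) of 9 members in each library, controls in blue and deletion libraries in red, with the group mean and SD beside the points; circles stand for 212 and 208, squares for 213 and 211, triangles for 220 and 221, and shapes do not pair libraries. Ndrg1 in deletion libraries (28.2 to 29.7 CPM) lies below its controls (41.8 to 49.9 CPM), whereas Ldha in library 221 lies above every control.

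In the whole set, 7 members were lower in every deletion library than in every control, as were 13.5% of all tested genes, and 1 was higher in every deletion library, as were 14.1% of tested genes. The 7 are Ndrg1, Slc16a3, Hk2, Slc2a1, Adm, Ero1l and Mxi1, and the single higher member is Pfkm. Apart from Ndrg1 and Slc16a3, none of these passed the adjusted threshold.

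Among the transporters, Slc2a1, the glucose carrier through which most embryonic cells take up glucose, had 133, 127 and 107 CPM across controls and 105, 101 and 82.4 CPM across deletion libraries. The groups did not overlap, but control 220 and deletion library 208 almost met. The log2 fold change was -0.34 (95% interval -0.60 to -0.08, edgeR adjusted p = 0.122). DESeq2's Wald test called it lower (-0.34, adjusted p = 0.00937), and so did edgeR without control 220 (-0.43, adjusted p = 0.0346). Without control 220, no control shared the sex of the deletion libraries. Slc2a1 was called in 3 of 21 settings, and its log2 fold change ran from -0.74 to -0.07 over them.

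The enzymes are taken in the order of the pathway. Hexokinases trap glucose in the cell as its phosphate. Hk2, the form most often induced by growth signals and hypoxia, had 52.6, 54.0 and 52.9 CPM in the 3 controls versus 44.8, 48.9 and 37.0 CPM after deletion. The controls lay within a narrow band and all deletion libraries were below it, library 221 furthest. The log2 fold change was -0.29 (SE 0.09, edgeR adjusted p = 0.0825), and the call was made without library 211 (-0.38, adjusted p = 0.0407). Hk1, the constitutive form, had 58.6, 57.2 and 62.5 CPM in control libraries against 56.9, 56.7 and 72.7 CPM in deletion libraries, overlapping groups with 221 the highest of all. As a share of the Hk1 and Hk2 sum, each scaled by exon length, Hk2 was 56.2, 57.4 and 54.8% in controls and 52.9, 55.2 and 42.1% in deletion libraries. The low share of Hk2 in library 221 thus came with both a low Hk2 and a high Hk1. Lengths from the longest transcript instead of the exon union put the control mean at 41.0% and left the difference between groups at -5.57 points, beside -6.05 points with the exon union.

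Gpi1, which converts glucose phosphate to fructose phosphate, ranged from 188 to 214 CPM in controls and from 199.5 to 249 CPM in deletion libraries (log2 fold change 0.12, 95% interval -0.07 to 0.30). Phosphofructokinase sets the pace of the upper pathway. Its liver-type subunit Pfkl had 141, 135 and 137 CPM across controls and 119.9, 129.7 and 187 CPM across deletion libraries, with libraries 208 and 211 below and 221 above all controls. Pfkm, the muscle-type subunit, had 71.7, 69.7 and 69.2 CPM in the 3 controls versus 74.0, 74.0 and 77.5 CPM after deletion, all higher than the controls but by little (log2 fold change 0.10, SE 0.05, edgeR adjusted p = 0.278). The summed skeletal muscle markers given above were also higher in every deletion library. With the muscle marker level as a covariate the log2 fold change of Pfkm was 0.19. That covariate nearly follows the groups, and the part of muscle in Pfkm was not tested. Pfkp, the platelet-type subunit, spanned 16.3 to 19.8 CPM over the 6 libraries. Per length of the exon union, Pfkl and Pfkm made up 47.9 ± 0.267% and 48.9 ± 0.277% of the 3 subunits in controls (SD, n = 3). Lengths from the longest transcript put these control means at 58.2% and 38.5%, so which subunit is the more abundant depends on the length used. In the deletion libraries 208, 211 and 221 the Pfkl share was 43.4, 45.3 and 53.3%, below the controls in 208 and 211 and above them in 221.

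Pfkfb3 and Pfkfb4 make and break down the sugar bisphosphate that activates phosphofructokinase. Pfkfb3, a HIF target, had 41.1, 42.3 and 32.0 CPM in control libraries against 32.5, 35.6 and 21.2 CPM in deletion libraries, overlapping through the low control 220 (log2 fold change -0.37, 95% interval -0.91 to 0.17, edgeR adjusted p = 0.391). Pfkfb4 lay between 16.4 and 19.3 CPM in all libraries.

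Aldolase splits the sugar into triose phosphates, which triose phosphate isomerase (Tpi1) interconverts. Aldoa had 365, 356 and 336 CPM across controls and 293, 316 and 475 CPM across deletion libraries. Tpi1 had 473, 439 and 434 CPM in the 3 controls versus 405, 408 and 534 CPM after deletion. In both, libraries 208 and 211 were below all controls and 221 above them, and the group means were close (log2 fold changes 0.04 and 0.0021). The symbol Aldoa names 2 adjacent genes in the annotation, so no length or position is given for it. Aldoc, an isoform known from brain, was between 9.09 and 13.0 CPM.

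Below the triose step, each reaction either yields ATP or prepares for it. Gapdh, often used as a reference gene, had 128, 119.9 and 117 CPM in control libraries against 119, 121 and 129.8 CPM in deletion libraries, within a narrow range in both groups (log2 fold change 0.02, 95% interval -0.10 to 0.14). Pgk1, the first enzyme to form ATP, had 69.8, 67.5 and 68.0 CPM across controls and 56.4, 55.3 and 78.9 CPM across deletion libraries. Pgam1, phosphoglycerate mutase, had 289.7, 286 and 285 CPM in the 3 controls versus 219, 235 and 297 CPM after deletion. For Pgk1 and Pgam1 the controls were almost identical, libraries 208 and 211 were clearly lower, and 221 was the highest of the 6. Eno1, the common enolase, had 356, 351 and 324 CPM in control libraries against 289.8, 299 and 392 CPM in deletion libraries, with 208 and 211 again below and 221 above all controls. Eno2, the enolase known from neurons, was between 18.7 and 22.2 CPM. Pkm, pyruvate kinase, had 1076, 1073 and 1100.3 CPM across controls and 945, 1000.3 and 1227 CPM across deletion libraries. Per length of the exon union, the mean level over the 6 libraries was 214 CPM per kb for Pkm, 172 for Ldha, 163 for Tpi1 and 136 for Pgam1, and 0.992 for Car9 and 0.619 for Adm. Aldoa has no level per kb here because the annotation holds more than 1 gene of that name. No order is drawn among the abundant enzymes, since the levels leave out reads at near-identical copies and depend on the transcript length used.

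Ldha, the lactate-forming dehydrogenase subunit and a standard HIF target (chr7:46841475-46855627, plus strand), differed widely between the deletion libraries. Controls 212, 213 and 220 had 624, 622 and 611 CPM, and deletion libraries 208, 211 and 221 had 425, 475 and 668 CPM. Libraries 208 and 211 lay far below the controls and 221 above them. The means of 619 ± 6.92 CPM across controls and 523 ± 128 CPM after deletion (SD, n = 3 each) show a spread in the deletion group that controls do not have. With all 6 libraries the log2 fold change was -0.24 (95% interval -0.65 to 0.16, edgeR adjusted p = 0.462). As a share of Ldha and Ldhb per exon length, Ldha was 76.6, 77.4 and 78.0% in controls and 67.1, 71.1 and 75.8% in deletion libraries. Unlike the Ldha level itself, this share was below every control in all 3 deletion libraries, including 221. Ldhb had 90.3, 85.9 and 81.7 CPM in controls and 98.8, 91.7 and 101 CPM in deletion libraries (log2 fold change 0.18, edgeR adjusted p = 0.0921). The lower share in 221 thus came with a high Ldhb and not with a low Ldha.

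**Figure D3:**
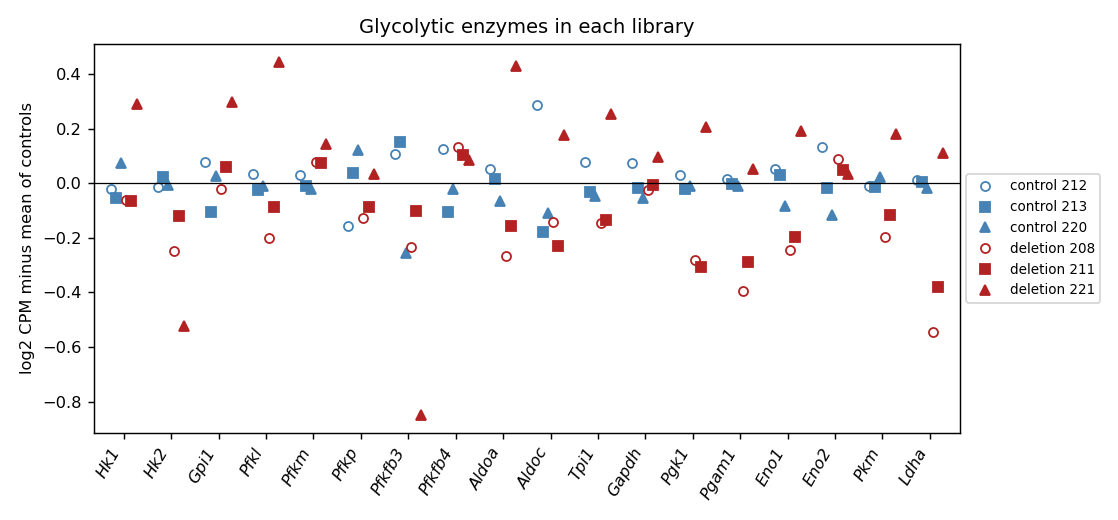
For each glycolytic enzyme (x axis, in pathway order), the log2 CPM of each library minus the mean log2 CPM of the controls (y axis), controls in blue and deletion libraries in red. Red triangles (library 221) stand above the other points for most enzymes and far below them for Hk2 and Pfkfb3, and libraries 208 and 211 stay close together.

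Deletion library 221 therefore stood apart across the pathway. Leaving aside the 2 Pfkfb genes, 221 was the highest of the 6 libraries in 12 of 16 pathway enzymes (75%), against 18.6% of all tested genes. It was above both 208 and 211 in 14 of 16 (87.5%, against 38.6% of tested genes). Libraries 208 and 211 were both below every control in 10 of 16 (62.5%, against 21.4% of tested genes). With the Pfkfb genes included, these counts were 12, 14 and 10 of 18. The summed CPM of the 16 enzymes was 3970, 3867 and 3852 in controls 212, 213 and 220 and 3294, 3477 and 4477 in deletion libraries 208, 211 and 221. The deletion libraries thus fell on both sides of a narrow control range. The sex-linked genes place 221 in the same class as 208, 211 and control 220, so by these genes 221 does not differ from 208 and 211 in embryo sex. The part of embryo sex in the distance of these libraries from controls 212 and 213 was not tested. Library 221 differed from 208 and 211 also in red blood cell markers (2143 CPM summed, against 4210 and 4752), in embryonic over adult beta-globin (a ratio of 0.320, against 0.191 and 0.196) and in summed muscle markers (1260 CPM, against 1638 and 2132). With the globin ratio as a covariate, 0 enzymes were called by edgeR (1 at an unadjusted p under 0.05) and their median log2 fold change was -0.15. The part of the red blood cell markers was not tested.

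Library 221 was the lowest of the 6 for 8 of the 35 members (22.9%), near the 18.6% of all tested genes. They were 2 of the 18 enzymes, Hk2 and Pfkfb3, and 6 of the 17 others, Slc2a1, Ndrg1, Ankrd37, Ddit4, Ero1l and Hif1a. Each library was left out in turn, and the fit without 221 is given here because of the values just described. Its lower calls among the enzymes restate that 208 and 211 lay below the controls and are no separate evidence. Leaving out any other single library, edgeR called 0 enzymes (1 at an unadjusted p under 0.05 each time), except for Hk2 without 211. With libraries 208 and 211 only, 5 of 18 enzymes and 4 of 17 other members were called lower and 0 were called higher (0 higher at an unadjusted p under 0.05), where 825 of 19814 tested genes (4.16%) were lower. The enzymes were Ldha at -0.46 on the log2 scale (edgeR adjusted p = 0.00141), Pgam1 at -0.34 (edgeR adjusted p = 0.00294), Pgk1 at -0.29 (edgeR adjusted p = 0.00698), Eno1 at -0.22 (edgeR adjusted p = 0.0329) and Aldoa at -0.21 (edgeR adjusted p = 0.0429). Apart from Ndrg1 (-0.67) and Slc16a3 (-0.66), the others were Pdk1 at -0.34 (edgeR adjusted p = 0.00319) and Bnip3 at -0.38 (edgeR adjusted p = 0.0267). Control 220 and deletion library 221 were also left out together, a choice made after seeing the data. That left controls 212 and 213, low in Xist, against 208 and 211, high in Xist. Embryo sex and deletion therefore cannot be told apart there. In that fit 6 enzymes, the same 5 with Pfkfb3, and 9 other members were called lower, beside 7.12% of tested genes.

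**Figure D4:**
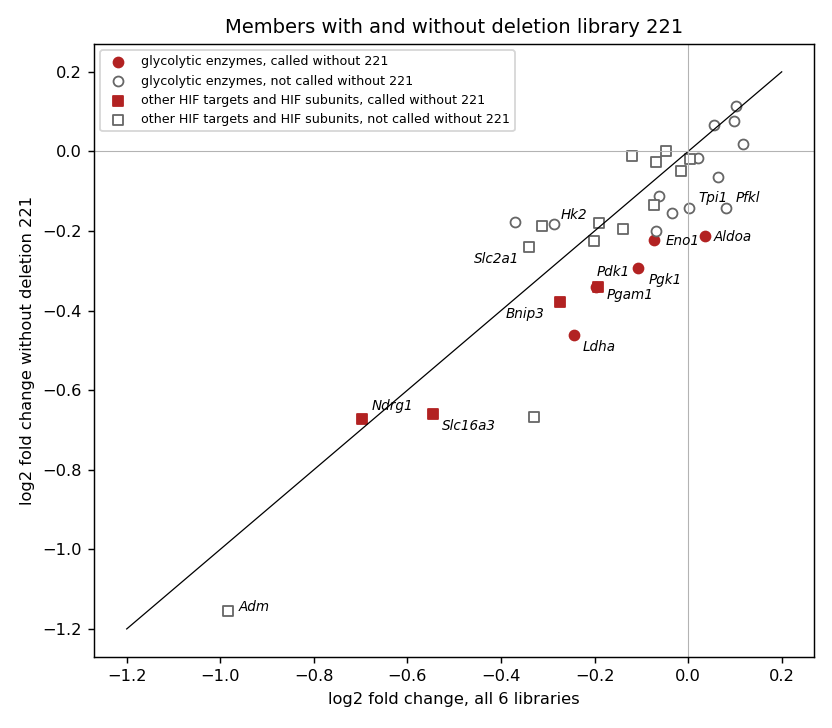
Log2 fold change of each member with all 6 libraries (x axis) and without deletion library 221 (y axis), circles for enzymes and squares for the other HIF targets and HIF subunits, filled where called without 221; the line marks equal values. Ldha, Pgk1, Pgam1, Eno1, Aldoa, Pdk1 and Bnip3 lie below the line and are called without 221 and not with all 6 libraries, Ndrg1 and Slc16a3 are called in both, and Hk2 and Slc2a1 lie above it.

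Pdk1, the kinase that turns off pyruvate dehydrogenase and so keeps pyruvate out of the mitochondria, had 85.0, 82.5 and 86.3 CPM in control libraries against 68.1, 65.4 and 88.6 CPM in deletion libraries. Its arrangement over the libraries was that of Ldha, and with all 6 the log2 fold change was -0.19 (95% interval -0.44 to 0.05, edgeR adjusted p = 0.334). Bnip3, a receptor for the removal of mitochondria, had 41.9, 38.6 and 35.4 CPM across controls and 31.6, 27.9 and 36.5 CPM across deletion libraries (log2 fold change -0.27, edgeR adjusted p = 0.136). Only 221 overlapped the controls. Its relative Bnip3l stayed between 106 and 116 CPM in all 6 libraries.

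Of the secreted factors, Vegfa, the main growth factor of blood vessels, had 134, 131 and 129 CPM in the 3 controls versus 138, 121 and 136 CPM after deletion. The groups overlapped throughout, and the 95% interval of the log2 fold change ran from -0.13 to 0.13. Adm, the vasodilator peptide adrenomedullin, had 1.49, 1.58 and 0.924 CPM in control libraries against 0.581, 0.613 and 0.826 CPM in deletion libraries. Its log2 fold change of -0.98 was the lowest of the 35, but at this low level its interval was wide (-1.69 to -0.28) and it did not pass (edgeR adjusted p = 0.0919).

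The oxygen sensors Egln1 and Egln3, the prolyl hydroxylases that mark HIF alpha, differed between the groups by less than the SD of the deletion libraries. Egln1 had 83.5 ± 1.56 CPM across controls and 79.4 ± 5.95 CPM after deletion (SD, n = 3 each) and Egln3 10.8 ± 1.06 CPM across controls and 10.4 ± 0.816 CPM after deletion. Transcripts of the alpha subunits themselves overlapped between the groups. Hif1a had 175, 184 and 197 CPM across controls and 179, 185 and 166 CPM across deletion libraries, and a log2 fold change of -0.07 (95% interval -0.20 to 0.07). Epas1, the HIF alpha subunit known from endothelium, had 37.9, 36.1 and 29.7 CPM in the 3 controls versus 27.9, 32.6 and 33.8 CPM after deletion (95% interval -0.37 to 0.09). HIF alpha is controlled mainly through protein stability, which RNA counts do not measure.

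Among the remaining HIF targets, Ero1l, an oxidase of disulfide formation in the endoplasmic reticulum, had 50.5, 49.5 and 47.6 CPM in control libraries against 43.5, 43.4 and 42.4 CPM in deletion libraries. Mxi1, an antagonist of Myc, had 41.0, 39.7 and 39.8 CPM across controls and 34.5, 34.2 and 36.1 CPM across deletion libraries. Both were separated without overlap and by small steps, with log2 fold changes of -0.19 and -0.20 (edgeR adjusted p = 0.0720 and 0.0730). Ddit4, an inhibitor of mTOR signalling, had 114, 109 and 82.9 CPM in the 3 controls versus 99.3, 103 and 79.6 CPM after deletion, with 220 and 221 the lowest pair. Car9, a carbonic anhydrase that is a common marker of hypoxia, had 2.54, 2.93 and 2.16 CPM in control libraries against 1.58, 1.62 and 2.88 CPM in deletion libraries. Ankrd37, an ankyrin repeat protein, had 6.18, 5.38 and 3.28 CPM across controls and 4.004, 4.69 and 3.26 CPM across deletion libraries. For these last 3 the groups overlapped, and their edgeR adjusted p-values were 0.719, 0.522 and 0.485.

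Many glycolytic genes have processed pseudogenes, copies of the spliced RNA inserted elsewhere, and a counter may divide reads between gene and copy. Matching member transcripts to other annotated transcripts (at least 95% identity over 300 bases or more) found copies in the table for 10 members. Copies held 84.6% of the reads of gene plus copies for Pgk1 (mainly Pgk1-rs7, 100% identical), 77.4% for Gapdh, 56.1% for Eno1, 29.5% for Pgam1, 24.8% for Bnip3l and 24.4% for Gpi1. For Bnip3, Pkm, Tpi1 and Ldha the share was 15.9, 11.4, 2.90 and 1.24%. The levels of Pgk1, Gapdh and Eno1 given above are therefore uncertain, since the reads of gene and copy could not be told apart. With the copies added, a choice made after seeing the data, Gapdh was 534 ± 20.5 CPM across controls and 551 ± 44.8 CPM after deletion, and Pgk1 444 ± 4.25 and 411 ± 99.1 CPM (SD, n = 3 each). Differences between groups hardly moved, at a log2 fold change of -0.11 for Pgk1, 0.04 for Gapdh, -0.07 for Eno1 and -0.18 for Pgam1, and edgeR called 0 enzymes (1 at an unadjusted p under 0.05). Library 221 was the highest of the 6 for each of these with the copies added.

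**Figure D5:**
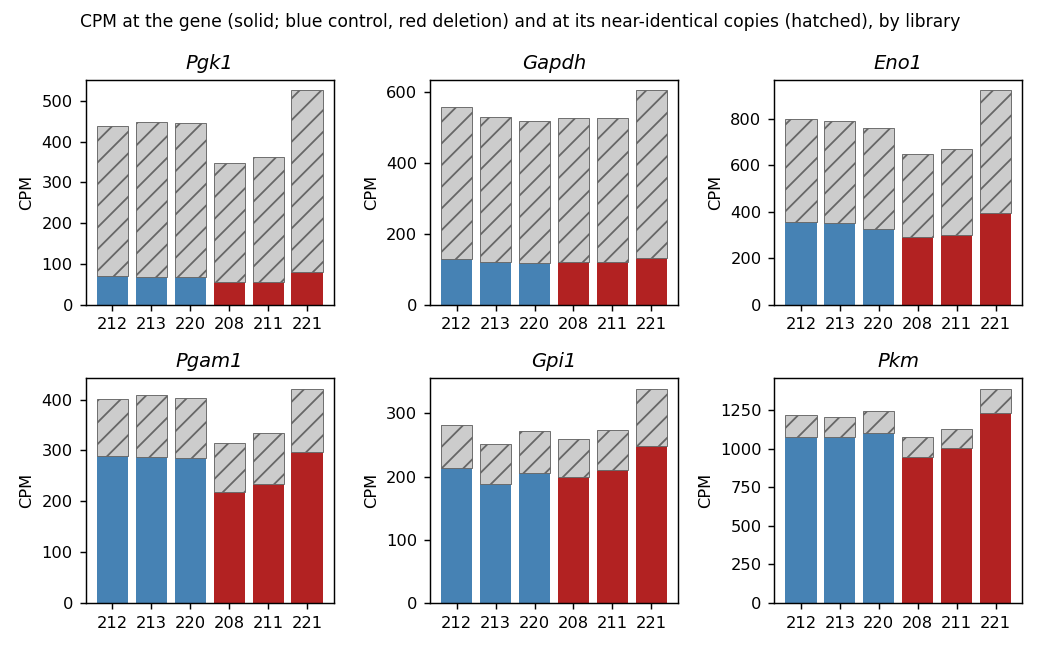
CPM (y axis, from 0) at 6 enzyme genes (solid, blue for controls and red for deletion libraries) and at their near-identical copies (hatched) in each library (x axis). Copies make up most of the Pgk1 and Gapdh bars and little of the Pkm bar, and library 221 is the tallest bar in all 6 panels.

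The rest of the pathway was read from lists of related genes that are not members. Of 28 tested glycolysis and pyruvate genes, 2 rose and 0 fell in edgeR's test (5 lower at an unadjusted p under 0.05, 3 lower by DESeq2's Wald test and 0 by limma voom), with a median log2 fold change of -0.04. The share called, 7.14%, was near the 7.01% of all tested genes. Pgam2, the muscle form of phosphoglycerate mutase, went from 6.24 ± 0.162 to 9.62 ± 1.76 CPM (log2 fold change 0.62, edgeR adjusted p = 0.0258). Slc2a4, the insulin-responsive glucose carrier of muscle and fat, went from 21.0 ± 1.93 to 26.6 ± 2.26 CPM (0.34, edgeR adjusted p = 0.0484; SD, n = 3 each). Both are known from muscle, whose summed markers are given above and were higher in every deletion library. With the muscle marker level as a covariate, their log2 fold changes were -0.05 and 0.63. That covariate nearly follows the groups, and the part of muscle in these 2 genes was not tested. The Pgam1 share of Pgam1 and Pgam2 per exon length was 95.3, 95.1 and 94.96% in controls and 91.1, 89.6 and 93.9% in deletion libraries, below every control in each deletion library.

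Of 44 other tested hypoxia response genes, 2 rose and 1 fell, with a median of 0.0092. That is 6.82% called, near the 7.01% of all tested genes. Bhlhe40, a transcriptional repressor induced by hypoxia, had 27.1, 31.0 and 30.0 CPM across controls and 17.3, 19.5 and 17.3 CPM across deletion libraries (log2 fold change -0.70, SE 0.08, edgeR adjusted p = 0.00117). Ppfia4, a liprin, had 26.0, 25.3 and 22.6 CPM in the 3 controls versus 37.6, 40.5 and 33.8 CPM after deletion (0.60, edgeR adjusted p = 0.00279). Fgf11, a fibroblast growth factor that stays inside the cell, stood at 0.41 on the log2 scale (edgeR adjusted p = 0.0381). Of the 19 genes of the tricarboxylic acid cycle, which oxidises the pyruvate that glycolysis delivers, 0 rose (1 at an unadjusted p under 0.05, 0 by DESeq2's Wald test and 0 by limma voom) and 2 fell (10.5% called, against 3.37% of all tested genes that fell). Suclg2, a subunit of succinyl-CoA synthetase, stood at -0.31 (edgeR adjusted p = 0.0164), and Ogdh, a subunit of the oxoglutarate dehydrogenase complex, -0.20 (edgeR adjusted p = 0.0320).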

How the data were processed

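RNA was measured in 6 libraries. The authors deposited estimated counts (expected counts, partly not whole numbers) per gene symbol, without normalization, per the file headers and values. The submitters' processing notes list CASAVA 1.8.2, STAR 2.4.1d, Partek and the build mm10. What each tool did, and which annotation, strand setting or filter was used, is not given in the sources used here. Columns were tied to groups only, since no label holds their numbers, and 0 value columns were left without a group. Within groups, library pairs differed by more than sampling noise (chi-square over its degrees of freedom 7.79 to 38.0).

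Counts were rounded, filtered with filterByExpr (minimum count 10, minimum total 15) and scaled by TMM. edgeR 4.0.16 in R 4.3.3 (glmQLFit with robust=TRUE, glmQLFTest) compared deletion with control over 19284 genes without covariates. P-values were adjusted by Benjamini-Hochberg over all of them, and 0.05 was the threshold. SEs are the fold change over the square root of F, and intervals are at 95%. The script was tested on simulated data. Coordinates and lengths come from GENCODE M21 (GRCm38), promoters from RefSeq GRCm38.p6, and copies from blastn 2.17.0. Alternatives (21) included DESeq2 1.42.0, limma 3.58.1 voom, other filters and scalings, covariates and leaving out libraries. All 35 members are named, with Prmt1 and, for the other lists, up to 4 genes of smallest p past the threshold. Marker lists are given by counts and sums, and Prrx1, Osr2, Pax9 and Shox2 are named outside that rule. The members and lists were chosen with earlier results of these data known. The single-gene test results of the palatal mesenchyme markers are not reported here.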

Additional observations from a re-analysis of the deposited data

How the results depend on the processing

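No paired analysis was possible because the columns carry none of the replicate numbers of the labels. Counts of calls out of all tested genes were 1352 in the main test, 2075 with DESeq2's Wald test, 413 with a 1.2-fold minimum (glmTreat), 129 with embryo sex, 294 with the globin ratio and 0 with the muscle marker level as covariate. They were 89 without controls 212 and 213, 2769 without libraries 220 and 221 (a choice made after seeing the data) and 356 to 1872 when 1 library was left out. The muscle marker level nearly follows the groups, the 1.2-fold minimum is stricter by design, and the causes of the other changes were not tested. Without control 220, with or without library 221, embryo sex was fully confounded with the groups.

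Enzymes called lower numbered 0 in the main test, 1 with DESeq2's Wald test, 1 without a filter on low counts, 6 without libraries 220 and 221, and 0 to 5 when 1 library was left out, the 5 being without 221. Other HIF targets and subunits called lower numbered 2 in the main test, 1 each with the 1.2-fold minimum, embryo sex and the globin ratio, 0 with the muscle marker level, 0 without controls 212 and 213, 9 without libraries 220 and 221, and 1 to 4 when 1 library was left out. No member was called higher in any setting. Other glycolysis and pyruvate genes called higher numbered 1 with upper-quartile factors, voom and robust=FALSE, and 0 with the 1.2-fold minimum, with each of the 3 covariates and without controls 212 and 213, and 0 to 2 when 1 library was left out. Those called lower numbered 3 with DESeq2's Wald test, 1 without 220 and 221, and 0 to 1 leaving out 1 library. Other hypoxia response genes called higher numbered 1 with voom, robust=FALSE, the 1.2-fold minimum and embryo sex, 0 with the muscle marker level and without controls 212 and 213, 5 without 220 and 221, and 1 to 3 leaving out 1 library. Those called lower numbered 3 with upper-quartile factors and DESeq2's Wald test, 4 without a filter, 0 with the muscle marker level and without controls 212 and 213, 9 without 220 and 221, and 1 to 5 leaving out 1 library. Genes of the tricarboxylic acid cycle called lower numbered 0 with the 1.2-fold minimum, embryo sex, the muscle marker level and without controls 212 and 213, 1 with the globin ratio, 4 without 220 and 221, and 0 to 3 leaving out 1 library.

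Log2 fold changes that changed sign belonged to 26 members and Pgam2. With embryo sex they were Hk1 -0.0095, Aldoc 0.056, Eno1 0.012, Egln3 0.13, Ankrd37 0.28, Ddit4 0.18 and Epas1 0.083. With the globin ratio they were Hk1 -0.14, Gpi1 -0.031, Pfkl -0.15, Pfkfb3 0.075, Aldoa -0.17, Tpi1 -0.12, Egln3 0.16, Ankrd37 0.32 and Ddit4 0.25. Without controls 212 and 213 they were Hk1 -0.0073, Aldoc 0.058, Eno1 0.014, Egln3 0.13, Ankrd37 0.28, Ddit4 0.18 and Epas1 0.085. Without libraries 220 and 221 they were Hk1 -0.032, Pfkl -0.15, Aldoa -0.25, Tpi1 -0.17, Gapdh -0.050, Vegfa -0.039 and Hif1a 0.014. With the muscle marker level they were Pfkp 0.11, Aldoc 0.43, Pgk1 0.57, Pgam1 0.26, Eno1 0.46, Pkm 0.36, Ldha 0.42, Pdk1 0.38, Bnip3 0.24, Bnip3l 0.15, Egln1 0.15, Car9 0.83 and Pgam2 -0.053. Upper-quartile factors gave Tpi1 -0.0061 and Vegfa -0.0046, voom gave Tpi1 -0.0096, and added copies gave Bnip3l 0.011. Leaving out 1 library gave ranges of Hk1 -0.064 to 0.12, Pfkl -0.14 to 0.20, Aldoa -0.21 to 0.17, Aldoc -0.20 to 0.090, Tpi1 -0.14 to 0.072, Gapdh -0.018 to 0.058, Eno1 -0.22 to 0.0082, Eno2 -0.0011 to 0.12, Pkm -0.16 to 0.041, Vegfa -0.033 to 0.061, Bnip3l -0.056 to 0.0068 and Egln3 -0.13 to 0.00036. Ndrg1 and Slc16a3 kept their direction in all 21 settings. Adm was not tested under the filter of 1 CPM in 3 libraries.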
